A study of Mus musculus with 15 samples.

Results

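The Slc25a genes encode the mitochondrial carrier family, and 45 of them were measured here in mouse gastrocnemius. They were taken as every gene whose single platform symbol is Slc25a followed by a number, except 1 gene that the selection leaves out, out of 19938 genes on the array table. Where a gene had more than 1 probe set, as 3 of the 45 did, the brightest of them on average was used. Of the 45, 35 passed a filter on low signal (mean log2 intensity of at least 5.32) and were tested among 12056 genes, and 10 lay below it and are given as levels only.

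Mitochondrial carriers sit in the inner membrane and exchange metabolites between cytosol and matrix. They bring ADP and phosphate in and ATP out, move malate, aspartate and glutamate for the reducing-equivalent shuttle, export citrate for lipid synthesis, and import amino acids, cofactors and iron. In skeletal muscle the ADP/ATP carrier Slc25a4 and the phosphate carrier Slc25a3 work beside ATP synthase, and Slc25a12 and Slc25a11 together carry the malate-aspartate shuttle.

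The mice were C57BL/6 males, 12 months old, either wildtype or Sirt3 knockout (Sirt3 is a mitochondrial NAD-dependent deacetylase), and either control-fed or calorie restricted (CR). RNA of 1 mouse was hybridised per array: for wildtype mice 3 on control diet and 4 on CR, for knockout mice 4 on each diet. How strict or long the restriction was, and in which cells and which part of the gene Sirt3 was deleted, is not stated in those sources that were used. All values are log2 RMA intensities deposited by the authors; the number of arrays limits their precision, and levels of different genes are not compared because probes differ in brightness.

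The Sirt3 transcript ranged from 6.38 to 6.68 on the 7 wildtype and from 4.94 to 6.19 on the 8 knockout arrays without overlap (difference -0.95, two-sided exact permutation p = 0.000622); whether its probes lie in the deleted part is not known. The mean of 12 skeletal muscle markers was high throughout, at 12.35 to 12.40 on the 3 wildtype control arrays and 12.42 to 12.55 on the others. The mean of 8 slow fibre markers varied more, from 8.77 on wildtype CR replicate 4 to 10.78 on wildtype CR replicate 3. Any relation of the slow fibre markers to the carriers was not tested. Transcripts of other tissues stood out on some arrays. Set against the median array, the mean of 16 male germ cell markers exceeded it by 3.77 in wildtype control replicate 3 and by 3.25 in knockout control replicate 1 (the germ cell arrays), and by at most 0.75 in the other 13. The mean of 9 pancreatic acinar markers exceeded the median array by 7.02 in wildtype control replicate 2, and that of 12 liver markers by 2.72 in wildtype CR replicate 4. The 4 arrays with such a mean more than 2 above the median array are called the arrays that carried another tissue. The source of these transcripts was not tested. Knockout control replicate 2 and wildtype control replicate 1, with liver markers 1.64 and 1.46 above the median array, are not among the 4. Slc25a5, Slc25a22, Slc25a25, Slc25a27 and Slc25a29 lay below every other array on both germ cell arrays, which is 5 of 45 carriers (all genes: 9.66%), and Slc25a31 and Slc25a39 lay above, which is 2 of 45 (all genes: 10.2%). Values without the germ cell arrays are given beside some of the carriers tested, and for some results also without all 4 arrays.

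The main carriers of oxidative energy supply lay close together in all groups: for the ADP/ATP carrier Slc25a4, the phosphate carrier Slc25a3 and the aspartate-glutamate carrier Slc25a12, each CR difference was within 0.07 of 0 on the log2 scale. The 2 carriers nearest to a call under CR averaged over genotypes were Slc25a30, a relative of the uncoupling proteins, with a log2 difference of -0.57 (SE 0.14), and Slc25a25, a calcium-regulated ATP-Mg carrier, with 0.71 (SE 0.21). Between the genotypes on the control diet the citrate carrier Slc25a1 differed most, by 1.45 (SE 0.56), and it also varied most between mice. None of the 35 tested carriers passed an adjusted p of 0.05 in limma in any of 7 comparisons, so no carrier can be called changed here. For CR in wildtype muscle, 0 of 35 were called (all genes: 0.124%) and 4 had an unadjusted p under 0.05 (all genes: 13.1%). For CR in knockout muscle, 0 were called (all genes: 0.0664%) and 3 had an unadjusted p under 0.05 (all genes: 12.0%). For CR averaged over genotypes, 0 were called (all genes: 1.07%) and 5 had an unadjusted p under 0.05 (all genes: 20.1%). These shares lie near or below those of all genes. In knockout muscle 0 of 35 carriers separated the diets without overlap (all genes: 6.98%).

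The genotype comparisons gave the same counts of 0. On the control diet no gene of the whole table was called (all genes: 0.0%) and 3 carriers had an unadjusted p under 0.05 in limma (all genes: 7.03%). On CR 0 carriers were called (all genes: 0.0166%), 3 had an unadjusted p under 0.05 (all genes: 5.92%) and 0 separated the genotypes without overlap (all genes: 4.6%). Averaged over diets, 0 were called (all genes: 0.0%) and 4 had an unadjusted p under 0.05 (all genes: 7.18%). The genotype by diet interaction in limma was called for 0 carriers (all genes: 0.0%), and 0 had an unadjusted p under 0.05 (all genes: 5.71%). The median log2 difference of the 35 carriers was 0.04 for CR in wildtype and 0.03 for CR in knockout muscle, against 0.04 and 0.01 over all genes. It was 0.04 for knockout on the control diet and 0.05 for knockout on CR, against 0.02 and -0.01. The CR comparisons of the genotypes share no arrays, and 20 of 35 carriers had the same sign in both, which is 57.1% against 66.3% of all genes.

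**Figure D1:**
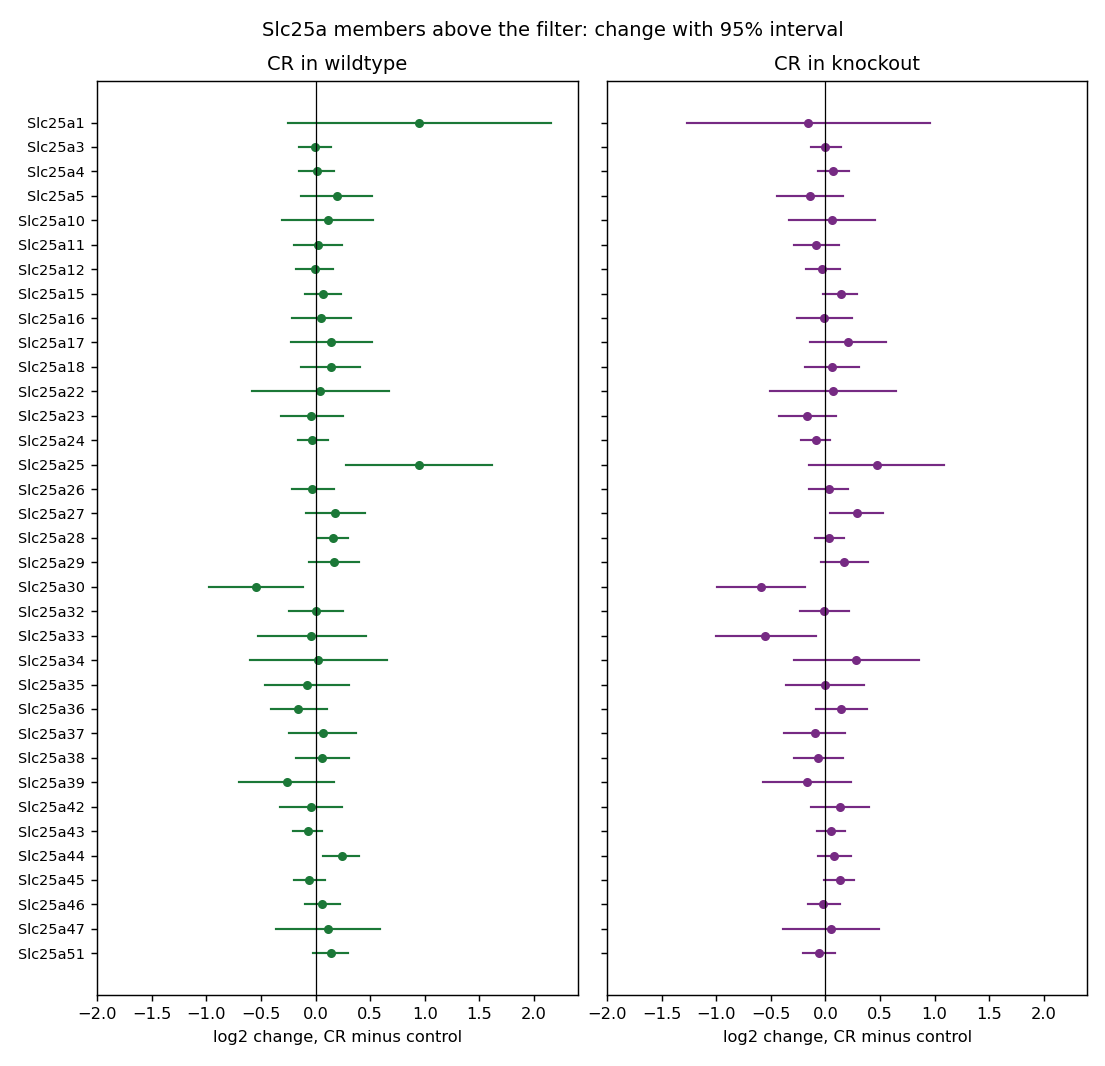
Log2 change of the 35 Slc25a members above the filter, CR minus control, in wildtype (left) and knockout (right) muscle. Points are limma estimates and lines are 95% intervals. Slc25a30 lies below 0 in both panels, Slc25a1 and Slc25a25 lie farthest above 0 in wildtype, both at 0.95, and the intervals of Slc25a1 are the widest.

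The carriers differed widely in how much they varied over the 15 arrays, a spread that includes the differences between groups. Slc25a1 had an SD of 0.92 over the 15 arrays, higher than 98.9% of all tested genes, and Slc25a25 had 0.61, higher than 97.8%. Slc25a30, Slc25a34, Slc25a22 and Slc25a33 followed with SDs of 0.37 to 0.39. At the other end, Slc25a3 had an SD of 0.07, above only 3.18% of genes, and Slc25a4 had 0.08, above 7.29%. The median carrier had an SD of 0.16 and the median gene 0.14. Within groups, the SDs were 0.83 for Slc25a1, 0.46 for Slc25a25, 0.43 for Slc25a34 and Slc25a22, 0.34 for Slc25a33 and 0.29 for Slc25a30.

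Of 12 genes grouped as adenine nucleotide and phosphate carriers and their relatives, 9 were tested. Slc25a4, which exchanges ADP for ATP and is the muscle and heart form, lay at 12.57, 12.47 and 12.57 in wildtype control and at 12.56, 12.58, 12.54 and 12.50 in wildtype CR muscle. In knockout muscle it lay at 12.32, 12.56, 12.65 and 12.54 on the control diet and at 12.58, 12.55, 12.55 and 12.69 on CR. All 4 groups overlapped, and the lowest value belonged to knockout control replicate 1, 1 of the germ cell arrays. The 95% interval of the CR difference was -0.15 to 0.17 in wildtype and -0.07 to 0.22 in knockout muscle, and that of the knockout difference was -0.18 to 0.14 on the control diet and -0.10 to 0.20 on CR. For Slc25a3, which imports phosphate, the intervals were -0.15 to 0.14, -0.13 to 0.14, -0.11 to 0.19 and -0.09 to 0.18 in the same order, and every array lay between 10.91 and 11.24.

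Slc25a5, the more widely expressed ADP/ATP carrier, lay at 8.84, 8.94 and 8.69 in wildtype control and at 8.70, 9.12, 9.52 and 9.15 in knockout control muscle. Knockout control replicate 3 was the highest of all arrays and knockout control replicate 1 lay within the wildtype range. The log2 difference was 0.30 (SE 0.15, limma adjusted p = 0.728), with an interval of -0.02 to 0.63. It was 0.17 without knockout control replicate 3, 0.45 without knockout control replicate 1 and 0.38 without both germ cell arrays, on which Slc25a5 was lowest. Slc25a5 has 3 probe sets with close mean values of 9.0, 8.95 and 8.53 over all arrays, and near-identical copies of this gene exist in the genome, so its signal may be shared between copies. Slc25a31, the ADP/ATP carrier of male germ cells, was below the filter at 2.54 to 3.10 on 13 arrays. It reached 4.67 on wildtype control replicate 3 and 4.23 on knockout control replicate 1, the arrays on which the germ cell markers stood out.

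Slc25a25 belongs to the calcium-regulated carriers that exchange ATP-Mg for phosphate and so set the size of the matrix adenine nucleotide pool. It lay at 7.0, 7.04 and 6.50 in wildtype control and at 7.73, 7.70, 7.97 and 7.79 in wildtype CR muscle. All 4 wildtype CR arrays lay above all 3 control arrays, and the means were 6.85 ± 0.30 (SD, n = 3) and 7.80 ± 0.12 (SD, n = 4). The log2 difference of 0.95 (SE 0.31), a 1.93-fold higher signal, had an unadjusted p of 0.00881 and an adjusted p of 0.221 in limma. It was 0.77 without the germ cell arrays, of which wildtype control replicate 3 was the lowest array for this gene. Without all 4 arrays that carried another tissue it was 0.80, where wildtype control replicate 1 alone remains. Among the 35 carriers 4 did not overlap between the wildtype diets (all genes: 12.5%): Slc25a25, Slc25a28 and Slc25a44 were higher on CR (all genes: 9.55%) and Slc25a30 lower (all genes: 2.95%).

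In knockout muscle Slc25a25 lay at 6.80, 7.51, 7.85 and 8.51 on the control diet and at 8.12, 7.65, 8.08 and 8.71 on CR. These groups overlapped, with knockout control replicate 4 above 3 of the CR arrays. The log2 difference was 0.47 (SE 0.29, limma adjusted p = 0.546), and the interaction was -0.48 (SE 0.43, limma adjusted p = 0.938). Averaged over genotypes the CR difference was 0.71 (SE 0.21, limma adjusted p = 0.107). It was 0.48 without the 2 germ cell arrays, both of which were low for this gene, and 0.49 without all 4. Without knockout control replicate 4 it was 0.85 and passed (limma adjusted p = 0.0488). Between genotypes on the control diet the difference was 0.82 (SE 0.31, limma adjusted p = 0.651), with knockout control replicate 1 inside the wildtype range, and it was 0.93 without the germ cell arrays and 0.54 without knockout control replicate 4. That comparison and CR in wildtype share the 3 wildtype control arrays.

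RefSeq (GRCm38.p6) lists 3 starts of Slc25a25 with a promoter window of 250 bases before to 50 after the start. The window at chr2:32424017-32424316 on the minus strand is shown because it holds the cAMP response element TGACGTCA, 150 bases before the start. Capitals mark that element and the CCAAT box (ATTGG where it lies on the other strand); the other 2 windows hold CCAAT boxes and no TGACGTCA. The element occurs on either strand in 1.79% of 32851 promoter windows and in 2 of the 45 windows that 35 of the Slc25a genes have. Which start gives the transcripts measured here was not tested.
Slc25a25: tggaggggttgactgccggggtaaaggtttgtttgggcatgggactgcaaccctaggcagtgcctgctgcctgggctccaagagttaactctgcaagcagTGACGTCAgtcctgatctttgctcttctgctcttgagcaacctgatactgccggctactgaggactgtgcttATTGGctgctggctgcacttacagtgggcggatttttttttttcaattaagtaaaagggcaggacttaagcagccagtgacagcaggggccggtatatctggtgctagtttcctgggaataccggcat

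The other calcium-regulated forms were steadier. Slc25a23 lay between 6.30 and 6.81 over all arrays. Slc25a24 lay between 5.48 and 5.78, near the filter, with a knockout difference of -0.14 on CR (SE 0.06, limma adjusted p = 0.839) and -0.10 averaged over diets (SE 0.04, limma adjusted p = 0.645). Slc25a41 (4.99 to 5.50) and Slc25a54 (2.71 to 3.22) were below the filter. Slc25a42, which imports coenzyme A, had group means of 7.68 to 7.82, and the peroxisomal carrier Slc25a17 ranged from 6.28 to 7.12. Slc25a43, without an assigned substrate, was 0.13 higher in knockout muscle on CR (SE 0.06, limma adjusted p = 0.839), with values of 5.52 to 5.83 in which the genotypes overlapped.

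Of 10 carriers of dicarboxylates, aspartate, glutamate, citrate and oxoacids, 8 were tested and 0 were called. Slc25a1, which exports citrate from the matrix, varied most. It lay at 7.11, 7.16 and 7.02 in wildtype control and at 7.96, 9.07, 8.92 and 8.22 in knockout control muscle. The 4 knockout arrays lay above all 3 wildtype arrays, with means of 8.55 ± 0.54 (SD, n = 4) and 7.10 ± 0.07 (SD, n = 3). The log2 difference of 1.45 (SE 0.56), a 2.73-fold higher signal, had an unadjusted p of 0.022 and an adjusted p of 0.662 in limma. On this diet 3 carriers did not overlap between the genotypes (all genes: 5.0%): Slc25a1, Slc25a10 and Slc25a44, each higher in knockout muscle (all genes higher without overlap: 3.71%).

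On CR the genotypes did not separate in Slc25a1. Wildtype CR arrays lay at 9.72, 7.70, 6.83 and 7.95 and knockout CR arrays at 7.82, 9.18, 7.46 and 9.09. The highest and the lowest value of all 15 arrays both belonged to wildtype CR mice. The CR difference was 0.95 (SE 0.56, limma adjusted p = 0.471) in wildtype muscle and -0.16 (SE 0.52, limma adjusted p = 0.925) in knockout muscle. The interaction was -1.11 (SE 0.77, limma adjusted p = 0.921), with an interval of -2.75 to 0.53 that includes 0. The wildtype CR difference and the control-diet knockout difference share the 3 wildtype control arrays. Averaged over diets the knockout difference was 0.89 (SE 0.38, limma adjusted p = 0.645). The control-diet difference was 1.61 without the germ cell arrays and 1.63 without all 4 arrays that carried another tissue. In the latter, the fit takes the spread of the single remaining wildtype control array from the other groups.

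Slc25a10, the dicarboxylate carrier that exchanges malate or succinate for phosphate, lay at 6.52, 6.52 and 6.50 in wildtype control and at 6.75, 6.76, 6.81 and 6.74 in knockout control muscle. The arrays of each group differed by less than 0.1 and the groups did not overlap, but the spread on CR was wide. It lay at 7.26, 6.46, 6.38 and 6.42 in wildtype CR and at 6.87, 7.24, 6.42 and 6.78 in knockout CR muscle. The control-diet difference was 0.25 (SE 0.20, limma adjusted p = 0.835), where the SE comes from the spread within all 4 groups.

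Citrate carried by Slc25a1 is split in the cytosol by Acly, and Acaca, Fasn and Elovl6 build fatty acids from the product; these enzymes were set beside it after their values were seen. The 5 arrays highest in Slc25a1 (wildtype CR replicate 1, knockout control replicates 2 and 3, knockout CR replicates 2 and 4) were also the 5 highest in each of Acly, Acaca, Fasn and Elovl6. Scd1, which desaturates fatty acids, shared 3 of them, as did the adipocyte gene Adipoq. How many of all genes have the same 5 highest arrays was not counted. Neither this cut at 5 arrays nor the one at 4 below was fixed in advance. The next highest array was knockout control replicate 4 for Slc25a1 (8.22) and Elovl6 (7.97). It was knockout control replicate 1 for Acly (7.51) and knockout CR replicate 1 for Acaca (7.83) and Fasn (9.63). The 4 arrays lowest in Slc25a1 (the 3 wildtype control arrays and wildtype CR replicate 3) were the 4 lowest in Acaca, Fasn, Elovl6 and Scd1, and 3 of them were among the 4 lowest in Acly. Slc25a10 shared 4 of the 5 highest arrays but only 1 of the 4 lowest. In the control-diet genotype comparison Fasn differed by 2.16 (SE 0.62, limma adjusted p = 0.599) and Acly by 1.18 (SE 0.50, limma adjusted p = 0.668).

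The mean of 9 adipocyte markers lay between 7.24 and 7.60 in control-fed and 7.15 and 8.36 in restricted wildtype muscle, and between 7.38 and 7.86 in control-fed and 7.47 and 8.55 in restricted knockout muscle. Adiponectin (Adipoq), an adipocyte hormone, was highest on wildtype CR replicate 1 (8.86) and knockout CR replicate 2 (8.79), which were also the 2 highest for Slc25a1. On knockout control replicates 2 and 3, high for Slc25a1 at 9.07 and 8.92, Adipoq was 6.85 and 6.81. Both values lay below wildtype control replicates 1 (7.36) and 2 (7.11) and above replicate 3 (6.62). The mean of the 9 markers on those knockout arrays was 7.41 and 7.51, inside the wildtype control range. Conversely, Adipoq was 8.10 on knockout CR replicate 1, where Slc25a1 was 7.82. The part of adipocyte RNA in the Slc25a1 values was not tested. In whole muscle, more cells of a type and more RNA per cell cannot be told apart.

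**Figure D2:**
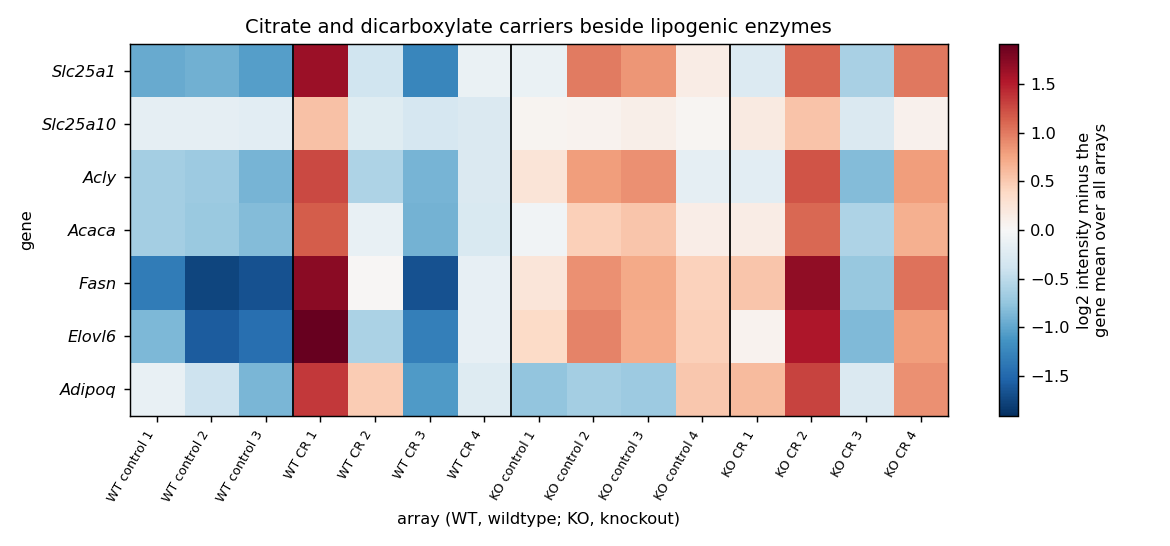
Log2 intensity of Slc25a1, Slc25a10, 4 lipogenic enzymes and Adipoq on each array, minus the mean of that gene over all 15 arrays (red higher, blue lower; columns are arrays, black lines part the 4 groups). Slc25a1, Acly, Acaca, Fasn and Elovl6 share their 5 highest arrays, while Adipoq is low on knockout control replicates 2 and 3. Scd1, which shares 3 of those 5 arrays, is not drawn.

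The promoter windows of both carriers are shown because their high arrays were mostly shared. The Slc25a1 window is chr16:17928170-17928469 on the minus strand and that of Slc25a10 is chr11:120491587-120491886 on the plus strand (RefSeq, GRCm38.p6). Capitals mark the E-box CACGTG and the CCAAT box on either strand. Slc25a1 has an E-box 239 bases before the start and 2 CCAAT boxes; Slc25a10 has 1 CCAAT box after the start and no E-box. An E-box occurs in 7.15% of all windows and in 8 of the 45 of this family (17.8%), a CCAAT box in 37.4% and 48.9%, and a GC box (GGGCGG, either strand) in 35.7% and 82.2%.
Slc25a1: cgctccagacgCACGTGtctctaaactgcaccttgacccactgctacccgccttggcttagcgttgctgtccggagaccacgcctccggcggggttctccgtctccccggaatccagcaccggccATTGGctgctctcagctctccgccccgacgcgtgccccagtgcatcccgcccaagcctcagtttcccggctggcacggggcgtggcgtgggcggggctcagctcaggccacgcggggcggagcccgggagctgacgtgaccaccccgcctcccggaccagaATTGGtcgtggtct
Slc25a10: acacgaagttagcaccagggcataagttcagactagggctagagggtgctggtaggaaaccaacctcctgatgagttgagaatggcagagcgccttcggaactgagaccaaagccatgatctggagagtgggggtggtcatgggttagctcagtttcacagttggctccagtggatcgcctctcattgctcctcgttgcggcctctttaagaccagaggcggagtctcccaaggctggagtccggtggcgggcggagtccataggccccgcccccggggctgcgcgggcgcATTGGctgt

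The shuttle carriers stayed close together in all groups. Slc25a12, the aspartate-glutamate carrier of muscle and brain, had means of 11.19 ± 0.04 (SD, n = 3) in wildtype control and 11.18 ± 0.10 (SD, n = 4) in wildtype CR muscle, and of 11.28 ± 0.14 and 11.25 ± 0.05 (SD, n = 4 each) in the knockout groups. The intervals of its CR differences were -0.18 to 0.16 in wildtype and -0.18 to 0.13 in knockout muscle. Its liver counterpart Slc25a13 was below the filter at 4.59 to 5.29. Slc25a11, the oxoglutarate-malate carrier, had group means of 10.51 to 10.63 and a knockout difference of 0.12 on the control diet (SE 0.10, limma adjusted p = 0.856).

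Slc25a22, a glutamate carrier, spread most widely within knockout control muscle, at 5.66, 6.26, 7.36 and 6.87. The other 3 groups lay between 6.19 and 6.88, so both extremes of the gene came from 1 group. Its CR difference in knockout muscle was 0.07 (SE 0.27, limma adjusted p = 0.937), and -0.22 without the germ cell arrays. Slc25a34, an orphan relative, had its lowest value of 4.64 on the same knockout control replicate 1, against 5.66 to 6.34 on all other arrays. Slc25a18, the other glutamate carrier (5.19 to 5.87), and Slc25a35 (6.27 to 7.17) showed overlapping groups, and Slc25a21 was below the filter at 2.97 to 3.47.

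Slc25a30, a carrier related to the uncoupling proteins and first described in kidney, came closest to the threshold. It lay at 7.71, 7.91 and 8.19 in wildtype control and at 7.63, 7.35, 7.35 and 7.22 in wildtype CR muscle. All 4 CR arrays lay below all 3 control arrays. In knockout muscle it lay at 7.58, 8.01, 8.64 and 7.84 on the control diet and at 7.63, 7.42, 7.49 and 7.18 on CR. Here only knockout control replicate 1 (7.58) lay inside the CR range.

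The CR difference in Slc25a30 was -0.55 (SE 0.20, limma adjusted p = 0.261) for wildtype and -0.59 (SE 0.19, limma adjusted p = 0.258) for knockout muscle, the latter -0.38 without knockout control replicate 3, the highest array. Averaged over genotypes it was -0.57 (SE 0.14), a signal of 0.673 of control, with an unadjusted p of 0.000916 and an adjusted p of 0.0607 in limma. The interaction was -0.04, with an interval of -0.62 to 0.55. The averaged difference was -0.58 (limma adjusted p = 0.0732) without the germ cell arrays and -0.50 (limma adjusted p = 0.283) without all 4 arrays that carried another tissue. It passed in 3 other settings: with a higher filter on low signal (adjusted p = 0.0427), without wildtype control replicate 1 (-0.63, limma adjusted p = 0.044) and without knockout control replicate 1 (-0.64, limma adjusted p = 0.048). In wildtype muscle it was -0.42 without the germ cell arrays and -0.27 (limma adjusted p = 0.933) without all 4, where wildtype control replicate 1 alone remains. In knockout muscle it was -0.74 in both cases.

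The promoter window of Slc25a30, the carrier closest to the threshold, lies at chr14:75786988-75787287 on the minus strand (RefSeq, GRCm38.p6) and holds 1 CCAAT box, in capitals, and neither TGACGTCA nor CACGTG.
Slc25a30: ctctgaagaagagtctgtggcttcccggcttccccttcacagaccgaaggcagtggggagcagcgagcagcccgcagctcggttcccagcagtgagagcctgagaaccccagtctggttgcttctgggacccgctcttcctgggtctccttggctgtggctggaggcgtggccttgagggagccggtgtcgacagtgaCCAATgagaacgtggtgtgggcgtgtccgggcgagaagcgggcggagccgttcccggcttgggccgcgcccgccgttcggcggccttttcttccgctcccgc

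Slc25a27, another relative of the uncoupling proteins known from brain, lay at 6.23, 6.63, 6.62 and 6.82 in knockout control and at 6.95, 6.87, 6.75 and 6.89 in knockout CR muscle, with 1 control array inside the CR range. The difference was 0.29 (SE 0.11, limma adjusted p = 0.343), and 0.23 averaged over genotypes (SE 0.08, limma adjusted p = 0.157). It was 0.17 in knockout muscle without knockout control replicate 1, and the average was 0.13 without both germ cell arrays and 0.07 without all 4 arrays that carried another tissue. Slc25a14 was below the filter at 4.35 to 4.72.

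**Figure D3:**
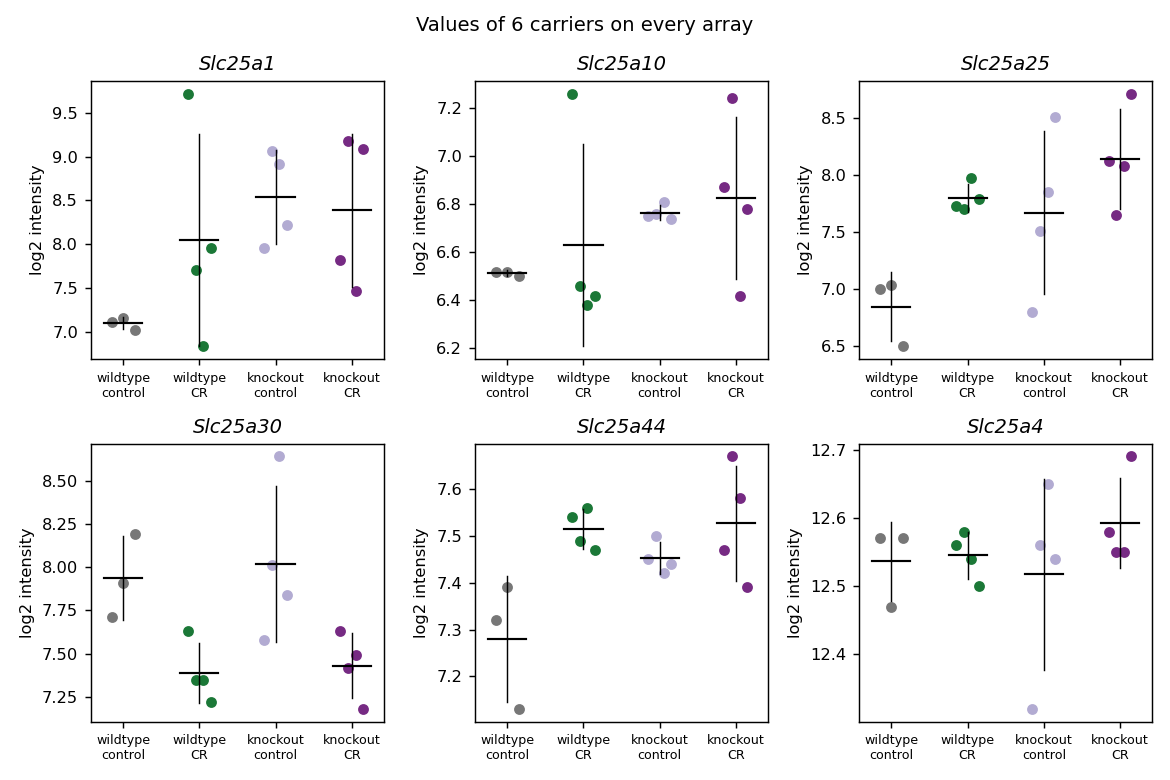
Log2 intensity of 6 carriers on every array, by group. Points are arrays (1 mouse each), horizontal lines are group means and vertical lines are 1 SD to either side. Each panel has its own scale: Slc25a4 spans 12.32 to 12.69, while Slc25a1 spans 6.83 to 9.72.

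Among 10 carriers grouped as amino acid, glutathione and related carriers, 7 were tested. Slc25a44, which imports branched-chain amino acids, lay at 7.32, 7.39 and 7.13 in wildtype control and at 7.54, 7.49, 7.56 and 7.47 in wildtype CR muscle. The groups did not overlap, and knockout arrays lay between 7.39 and 7.67 on either diet. The CR difference was 0.24 in wildtype (SE 0.08, limma adjusted p = 0.212) and 0.08 in knockout muscle (SE 0.07, limma adjusted p = 0.668), and the knockout difference on the control diet was 0.17 (SE 0.08, limma adjusted p = 0.678). Without wildtype control replicate 3, a germ cell array and the lowest of all, the wildtype CR value was 0.16 and the knockout value 0.10.

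Slc25a29, a carrier of basic amino acids, differed by 0.17 with CR in each genotype and by 0.17 averaged (SE 0.07, limma adjusted p = 0.217). The average was 0.12 without the germ cell arrays, and the knockout value was 0.08 without knockout CR replicate 3. Slc25a45 was 0.21 higher in knockout than in wildtype muscle on CR (SE 0.06, limma adjusted p = 0.626). Its wildtype CR arrays lay at 5.74, 5.70, 5.88 and 5.66 and its knockout CR arrays at 5.82, 6.01, 6.05 and 5.96, overlapping through wildtype CR replicate 3. Averaged over diets the knockout difference was 0.12 (SE 0.05, limma adjusted p = 0.645). The ornithine carrier Slc25a15 (6.07 to 6.40) and the glycine carrier Slc25a38 (6.92 to 7.51) showed overlapping groups. Slc25a2, Slc25a40 and Slc25a48 were below the filter, with every array between 4.39 and 5.46.

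Slc25a39, a glutathione carrier, was highest on the germ cell arrays. It was 9.13 on wildtype control replicate 3 and 8.89 on knockout control replicate 1, and 8.14 to 8.45 on the other 13 arrays. Its CR differences of -0.26 in wildtype (SE 0.20, limma adjusted p = 0.567) and -0.17 in knockout muscle (SE 0.19, limma adjusted p = 0.742) rest on control groups that each hold 1 such array. Without the germ cell arrays they were 0.06 (SE 0.08, limma adjusted p = 0.871) and -0.03 (SE 0.07, limma adjusted p = 0.908), and the knockout difference on the control diet was 0.18 (SE 0.09, limma adjusted p = 0.676) in place of -0.01. The part of germ cell RNA in the Slc25a39 and Slc25a31 values was not tested. Prm1, a sperm chromatin protein among the 16 markers, had a median of 7.19 and a highest value of 11.82 over the arrays.

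Slc25a47, a carrier known mainly from liver, was highest on wildtype CR replicate 4 (6.66) and wildtype control replicate 1 (6.29), and lay between 5.54 and 6.12 elsewhere. The liver marker mean ran from 5.91 to 7.70 in control-fed and 6.01 to 8.96 in restricted wildtype muscle, and from 5.58 to 7.87 and 5.93 to 6.96 in the knockout groups in that order. It was 2.72 and 1.46 above the median array on those 2 arrays, and 1.64 above on knockout control replicate 2, where Slc25a47 was 6.06. No group difference in Slc25a47 exceeded 0.11.

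**Figure D4:**
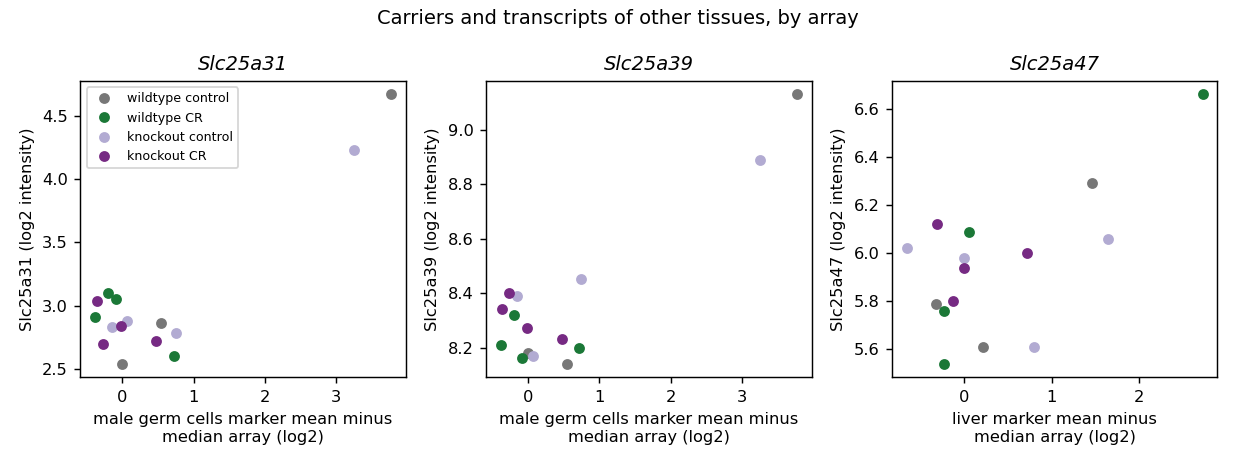
Log2 intensity of Slc25a31, Slc25a39 and Slc25a47 on each array (vertical axes) against the mean of the germ cell or liver markers minus that of the median array (horizontal axes, log2), coloured by group. The 2 arrays on the right of the first and second panels are wildtype control replicate 3 and knockout control replicate 1; the array on the far right of the third is wildtype CR replicate 4.

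Of 7 carriers of nucleotides and cofactors, 6 were tested. Slc25a51, which brings NAD+, the substrate of Sirt3, into mitochondria, lay at 8.05, 7.96 and 7.81 in wildtype control, 8.17, 8.06, 8.02 and 8.09 in wildtype CR, 7.95, 8.14, 8.12 and 8.01 in control-fed knockout and 8.08, 8.02, 7.86 and 8.02 in knockout CR muscle. All groups overlapped. The knockout difference was 0.11 on the control diet (interval -0.05 to 0.28, limma adjusted p = 0.801) and -0.09 on CR (interval -0.24 to 0.06, limma adjusted p = 0.922). The CR difference was 0.14 in wildtype (SE 0.08, limma adjusted p = 0.434) and -0.06 in knockout muscle (SE 0.07, limma adjusted p = 0.762), and the interaction was -0.20 (SE 0.10, limma adjusted p = 0.863). Without wildtype control replicate 3, the lowest array, the control-diet knockout difference was 0.05 and the wildtype CR difference 0.08.

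Slc25a33, a pyrimidine nucleotide carrier, lay at 5.88, 5.83, 6.90 and 5.45 in knockout control and at 5.63, 5.37, 5.37 and 5.52 in knockout CR muscle. Knockout control replicate 3 stood far above all other arrays, which ended at 5.88. The difference of -0.55 (SE 0.21, limma adjusted p = 0.332) was -0.25 without that array. Slc25a36, the related pyrimidine carrier, lay between 7.69 and 8.35, and its second probe set averaged 7.91. Slc25a26, which imports S-adenosylmethionine, had group means of 6.56 to 6.64, with a knockout interval of -0.27 to 0.12 on the control diet. Slc25a16 (7.97 to 8.46) and the folate carrier Slc25a32 (6.13 to 6.62) also showed overlapping groups, and Slc25a53 was below the filter at 3.93 to 4.40.

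The iron importers are known as mitoferrins. Slc25a28, the form outside blood cells, lay at 7.57, 7.63 and 7.42 in wildtype control and at 7.68, 7.68, 7.64 and 7.79 in wildtype CR muscle, without overlap. The difference was 0.16 (SE 0.07, limma adjusted p = 0.326), and it was 0.10 without wildtype control replicate 3. In knockout muscle it was 0.03 (SE 0.06, limma adjusted p = 0.856). Slc25a37, the form of red cell precursors, had group means of 6.88 to 6.98, with its highest value of 7.45 on knockout control replicate 1. Slc25a46, an outer membrane relative tied to mitochondrial fission and fusion, lay between 8.10 and 8.38 on all arrays.

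Genes that work beside the carriers were read from 4 lists, of which 48 genes were tested. In limma 1 of them was called, for CR averaged over genotypes (all genes: 1.07%), and 0 in the other 6 comparisons. Gpd1, the cytosolic enzyme of the glycerol phosphate shuttle, rose with CR averaged over genotypes by 0.40 (SE 0.07, limma adjusted p = 0.0313). Its CR differences were 0.46 in wildtype muscle (SE 0.11, limma adjusted p = 0.13) and 0.33 in knockout muscle (SE 0.10, limma adjusted p = 0.232). For Gpd1, values without the arrays that carried another tissue are not given here. The other 9 of 10 shuttle enzymes were not called; the list had a median of -0.03 against 0.03 over all genes in that comparison. Mdh2, the matrix malate dehydrogenase, was 0.17 higher in knockout muscle on the control diet (SE 0.06, limma adjusted p = 0.651), and Ldha, a lactate dehydrogenase subunit, differed by 0.19 with CR in wildtype muscle (SE 0.06, limma adjusted p = 0.201).

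Of 19 transporters whose symbols fall outside the Slc25a pattern, 0 were called, with 3 at an unadjusted limma p under 0.05 for CR in wildtype (all genes: 13.1%) and 1 in knockout muscle (all genes: 12.0%). Micu2, a regulator of the calcium uniporter, had a CR difference of -0.31 in knockout muscle (SE 0.09, limma adjusted p = 0.231), and Mcu, the pore of that uniporter, had one of 0.24 in wildtype muscle (SE 0.07, limma adjusted p = 0.191). Of 9 partners of ATP export, 0 were called, with 1 at an unadjusted limma p under 0.05 for CR in each genotype, against the same shares of all genes; the ATP synthase subunit Atp5o had a CR difference of 0.16 averaged over genotypes (SE 0.06, limma adjusted p = 0.161). Of 10 genes of the route that inserts carriers into the inner membrane, 0 were called, with 3 at an unadjusted limma p under 0.05 for CR in wildtype (all genes: 13.1%) and 2 in knockout muscle (all genes: 12.0%). Timm10, a chaperone of the intermembrane space that passes carriers on, had a CR difference of -0.21 in knockout muscle (SE 0.08, limma adjusted p = 0.312).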

How the data were processed

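RNA of 15 gastrocnemius muscles was measured on Affymetrix arrays, 1 mouse per array. The deposited values are log2 intensities made by the authors with RMA, per the submitters' processing notes; the sources used here give neither its version nor any scan batch. The table held 35556 probe sets, of which 21789 carry 1 gene symbol in the platform annotation; the 1621 with several symbols and the 12146 it does not list were not used. Genes whose mean lay under the 40th percentile of all annotated probe sets were removed. All 15 arrays were fitted with limma 3.58.1 (R 4.3.3), 1 mean per genotype and diet group, with two-sided tests and Benjamini-Hochberg adjustment over 12056 genes at 0.05. Intervals are 95% moderated intervals, and errors of differences are moderated SEs. Replicates are separate mice per the series' design text. No batch could be tested.

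The carriers and gene lists were chosen with earlier results of these data known. Named were carriers past the threshold, those with an unadjusted p under 0.05 or without overlap of the arrays (at most 8 per comparison), a set of 20 named whatever their test, and in each list those past the threshold or the 2 with the smallest p, of which the text gives some. Acly, Acaca, Fasn, Elovl6, Scd1, Adipoq and Pdk4 were chosen after their values were seen. Alternatives were other filters (none, 60th percentile), the mean of probe sets, quantile normalization, median centring, a trended robust prior, only the groups compared, blocking on the replicate number, and fits without single arrays or without the arrays that carried another tissue. The fit was tested on simulated data. All 45 carriers matched RefSeq by Entrez identifier, and 35 have a promoter window there. Figures used matplotlib 3.10.9.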

Additional observations from a re-analysis of the deposited data

Results flagged for a closer look

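Among 135 groups of 4 arrays (45 carriers in 3 groups), 10 had an array flagged as apart from the other 3 by Dixon's test, where chance flags about 1 in 20. The test weighs a gap against the range of the group, so a very small gap can be flagged. Slc25a31 was at 4.23 on knockout control replicate 1, a germ cell array, against 2.78 to 2.88. Slc25a10 was at 7.26 on wildtype CR replicate 1, the array highest in Slc25a1, against 6.38 to 6.46. Slc25a23 was at 6.30 on wildtype CR replicate 3, against 6.75 to 6.79. Slc25a47 was at 5.61 on knockout control replicate 1, against 5.98 to 6.06. Slc25a36 was at 7.98 on knockout CR replicate 4, against 8.12 to 8.15, and Slc25a18 at 5.49 on knockout CR replicate 2, against 5.60 to 5.62. On the second probe set of Slc25a36, knockout CR replicate 4 did not stand apart, at 7.93 against 8.12, 7.93 and 7.96. The other 4 carriers lay below the filter: Slc25a40 was at 4.82 and Slc25a53 at 4.40 on knockout control replicate 2, Slc25a48 was at 5.32 on knockout CR replicate 3, and Slc25a41 was at 5.25 on wildtype CR replicate 1, where the other 3 arrays were at 5.26.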

How the results depend on the processing

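In the main analysis, 0 carriers were called in each of the 7 comparisons. That count stayed at 0 in every alternative except for CR averaged over genotypes, where it was 1 with the 60th percentile filter (27 carriers tested, Slc25a30) and 0 to 1 when single arrays were left out: Slc25a30 was called when either control group lost its replicate 1, and Slc25a25 when knockout control replicate 4 was left out. The smallest adjusted p of a carrier in that comparison ranged from 0.044 to 0.137 over these 15 fits. With the replicate number as a block, 0 carriers were called in each comparison. Of 21 pairs of same-numbered arrays in different groups, 7 had deviations correlated above 0.1. The 21 correlations ranged from -0.636 to 0.503, with a median of 0.01 against -0.009 for the 63 other pairs. The numbers were therefore not taken to pair the mice. Of 559 recomputed differences of carriers named for an unadjusted p under 0.05 or for arrays that did not overlap, 555 kept their direction and their side of the threshold, 4 passed in the same direction (Slc25a30 in 3 and Slc25a25 in 1 of the cases above) and 0 changed sign. Of other carriers, not called in the main analysis, Slc25a39 (CR in wildtype, from -0.26 to 0.06) and Slc25a22 (CR in knockout, from 0.07 to -0.22) changed sign without the germ cell arrays. The Sirt3 difference ranged from -1.04 to -0.86 without single arrays. Signals near the filter and the 10 carriers below it limit what can be seen of those genes. The causes of these shifts were not tested.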

Other observations

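Knockout control replicate 1, a germ cell array, was low in several carriers on which the other 3 knockout control arrays were higher. Slc25a34 was 4.64 against 5.99 to 6.34, Slc25a22 was 5.66 against 6.26 to 7.36 and Slc25a25 was 6.80 against 7.51 to 8.51. Slc25a22 (6.19) and Slc25a25 (6.50) were also low on wildtype control replicate 3, the other germ cell array. Slc25a37 and Slc25a39 were instead high on knockout control replicate 1, at 7.45 and 8.89, against 6.73 to 7.0 and 8.17 to 8.45. Pdk4, a fasting-responsive kinase of pyruvate dehydrogenase, was 8.89 on that array and 11.95 or more on the other 14. Knockout control replicate 3 was the highest array of all 15 in Slc25a3 (11.24), Slc25a5 (9.52), Slc25a11 (10.84), Slc25a12 (11.47), Slc25a22 (7.36), Slc25a26 (6.78), Slc25a30 (8.64), Slc25a32 (6.62) and Slc25a33 (6.90). The shares of all genes that were low on knockout control replicate 1 or highest on knockout control replicate 3 were not counted. Whether either pattern is particular to carriers was therefore not tested.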
